A study of Homo sapiens with 38 samples.

Results

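U2 small nuclear RNA (snRNA) has many near-copies in the human genome, and this account follows those copies in small RNA released by DiFi cells. DiFi is an established human colorectal cancer cell line. The table lists 1312 snRNA features, of which 75 met the rule used here: the first symbol starts with RNU2- and is not RNU2-1, or is exactly U2. Of these, 68 carry an RNU2- symbol and 7 are first named U2, among 22549 small RNA features in all. They are called U2 entries below, and RNU2-1 is the reference they are set against.

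U2 snRNA is a subunit of the major spliceosome, where it pairs with the branch point of an intron. The human RNU2-1 genes lie in a tandem array on chromosome 17, and copies made by reverse transcription are scattered over the other chromosomes, most of them regarded as pseudogenes. The name pseudogene does not hold for every U2 entry. RNU2-2P is the listed symbol of RNU2-2, known as an expressed U2 gene, and 2 entries named U2 lie beside the RNU2-1 array. Part of the U2 sequence has the same letters as the microRNA hsa-miR-1246, which the table lists as a separate feature.

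Small extracellular vesicles (sEV), exomeres and supermeres, of which exomeres and supermeres are small particles without a membrane, were pelleted by ultracentrifugation (UC). The flat cultures (2D) gave 3 pools of 1360 mL medium after 48 h without serum. The hollow-fibre bioreactors (3D) gave 4 pools of about 400 mL, which were divided between methods. The pellets were spun at 167000 g for 4 h (sEV), at 167000 g for 16 h (exomere) and at 367000 g for 16 h (supermere). There were 3 libraries for each UC fraction in each culture, named 2D or 3D with the fraction. Chromatography (FPLC) of the 3D medium gave an exomere and a supermere group with 4 libraries each, and pooled fractions 6_7, 9_10 and 12 of a density gradient, loaded with 3D medium, had 4 libraries each as well. Light vesicles, heavy vesicles and material without a membrane are named in the gradient labels, but not by fraction number. All groups share the one line, which carries no genetic change in the labels, and all RNA was treated with AlkB demethylases and sequenced after size selection. The letters A to D are the labels' own, and no source ties a letter to a pool, so a p-value here covers the variation among libraries, which may be technical.

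Of the 38 libraries in 11 groups, 1 held 46 counts and no U2 count (3D supermere A), so 3D supermere has 2 libraries in every ratio and level below. It stayed in the fits of fold changes, and counts without it are given where they moved by over 1.5 times. The other totals ran from 81079 to 16991361 counts, with the lowest values in pool 9_10. The colorectal line was checked with 8 microRNAs of colon epithelium, which summed to 91258 to 126271 CPM (counts scaled to the library total) in 2D sEV and 3478 to 4052 CPM in 2D supermere, with none of the 8 at 0 in any group. Blood cell markers reached at most 8.25 CPM, the liver marker at most 56.0 CPM and the endothelial marker at most 61.7 CPM.

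The reference and RNU2-2P, an entry whose counts relative to it varied widely between libraries, are shown whole. The RNU2-1 sequence (chr17:43233787-43233977, minus strand, GRCh38) has in capitals the letters of hsa-miR-1246, at bases 94 to 112 counted from the 5′ end of the RNA. The RNU2-2P sequence (chr11:62841619-62841809, minus strand, within an exon of WDR74 on the same strand) has in capitals the bases that differ from RNU2-1. All sequences come from the GENCODE v29 transcripts on GRCh38, where 88 of the 88 listed loci were found at the same coordinates.
RNU2-1: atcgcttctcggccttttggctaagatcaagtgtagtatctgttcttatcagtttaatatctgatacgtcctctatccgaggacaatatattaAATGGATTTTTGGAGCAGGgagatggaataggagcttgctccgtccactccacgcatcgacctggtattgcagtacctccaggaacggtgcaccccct
RNU2-2P: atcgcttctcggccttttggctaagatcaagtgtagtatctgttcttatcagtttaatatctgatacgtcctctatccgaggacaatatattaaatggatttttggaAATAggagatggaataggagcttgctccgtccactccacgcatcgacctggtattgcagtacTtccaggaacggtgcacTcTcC

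RNU2-2P differs from RNU2-1 at 8 of 191 bases. The substitutions G108A, C109A, A110T and G111A (RNU2-1 base, position from the 5′ end, RNU2-2P base) lie inside the hsa-miR-1246 letters, and C170T, C187T, C189T and T191C lie near the 3′ end. The first 107 bases of both are the same.

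Several entries followed below are shown over U2 bases 79 to 128. Capitals mark the run of bases identical to RNU2-1 that overlaps the hsa-miR-1246 letters, and lower case marks everything outside that run. The first 3 entries hold the 19 letters unbroken, the next 5 lose 1 or more letters from their left end, and the last 3 lose the right end (RNU2-70P also the first letter).
RNU2-61P: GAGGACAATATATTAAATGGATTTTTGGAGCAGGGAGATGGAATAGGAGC
RNU2-7P: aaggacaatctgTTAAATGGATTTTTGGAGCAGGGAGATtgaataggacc
RNU2-6P: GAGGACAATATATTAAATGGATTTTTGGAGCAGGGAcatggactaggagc
RNU2-26P: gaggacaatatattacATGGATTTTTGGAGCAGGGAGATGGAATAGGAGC
RNU2-29P: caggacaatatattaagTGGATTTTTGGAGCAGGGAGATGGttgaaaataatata
RNU2-68P: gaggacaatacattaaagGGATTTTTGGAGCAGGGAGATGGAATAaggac
RNU2-59P: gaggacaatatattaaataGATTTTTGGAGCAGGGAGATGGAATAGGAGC
RNU2-64P: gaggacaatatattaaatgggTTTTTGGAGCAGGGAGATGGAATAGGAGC
RNU2-2P: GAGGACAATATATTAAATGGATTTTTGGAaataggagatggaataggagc
RNU2-36P: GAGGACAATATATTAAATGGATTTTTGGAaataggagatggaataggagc
RNU2-70P: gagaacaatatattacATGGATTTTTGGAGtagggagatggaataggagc

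Counts were concentrated in few entries. Summed over all libraries, the 75 entries held 6353256 counts, and RNU2-1, a single feature that stands for 11 loci with the identical 191 bases, held 5360948. Single entries ran from 0.8 to 488954 counts. The 20 entries with at least 10000 counts held 99.3% of the sum, 25 entries held between 100 and 10000 counts, and 30 held under 100. The 6 entries with the highest totals held 45.8%.

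All 8 entries with the hsa-miR-1246 letters unbroken had at least 10000 counts, with a median total of 482776 and a range of 165610 to 488954. Of the 12 entries with 1 difference in the letters 8 reached 10000 counts, and of the 55 with more differences or a gap 4 did, with a median total of 63.0. Identity with RNU2-1 over its whole length ran from 26.7% to 100% with a median of 75.4%. RNU2-7P had 79.6% identity and 482756 counts, and RNU2-29P had 72.8% identity and 374903 counts, while RNU2-2P, at 95.8% identity, had 181574. These totals weigh deep libraries most, and 2D supermere C alone held 2408552 of the entry counts. By mean CPM (counts scaled to the library total) RNU2-7P had 1666, RNU2-29P 1238 and RNU2-2P 1518. For RNU2-2P that mean includes 29488.5 CPM in pool 9_10 A. RNU2-7P lies at chr13:20612161-20612338 (plus strand) in an intron of IFT88, a gene of ciliary transport, and RNU2-29P at chr7:53776136-53776324 (plus strand) in an intron of LINC01446 on the opposite strand.

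**Figure D1:**
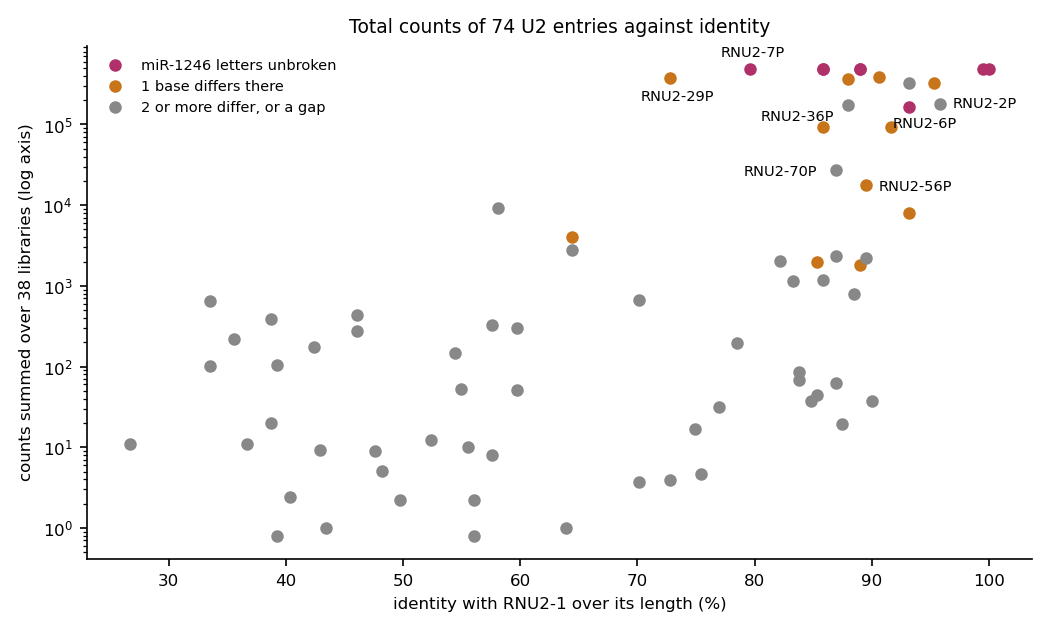
Total counts over 38 libraries (log axis) of 74 U2 entries against their percent identity with RNU2-1 (x axis), coloured by the number of differences in the hsa-miR-1246 letters; the Y-linked RNU2-57P is not drawn. The 8 entries with the unbroken letters all lie above 10000 counts, while the entries of at least 79.6% identity with 2 or more differences spread down to 19.3 counts (RNU2-25P).

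These values are shares of reads that match many places. Of the values above 0 in the U2 entries 89.1% were not whole, against 27.1% in the other features, so reads appear to have been divided among loci before deposit. A single entry's level is therefore uncertain, entries are not independent of each other, and a level cannot be read as transcription of its locus. By position, 39 entries lie in an intron of a protein-coding or long non-coding gene, 4 overlap an exon and 32 lie outside such genes. RNU2-57P on the Y chromosome was listed with the same counts as RNU2-26P in 34 of 38 libraries, and levels are given only for RNU2-26P. RNU2-57P stays in all counts of entries tested, called or passed below, where it largely repeats RNU2-26P.

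The counts of an entry were then divided by those of 1 RNU2-1 locus in the same library, that is, by the RNU2-1 counts over 11. This locus ratio is 1 where an entry received as many counts as each RNU2-1 locus. The U2 entry ENSG00000278774 (chr17:43273101-43273292, minus strand, in an intron of CCDC200) was within 10% of 1 in 37 of 37 libraries. It is 192 bases long and matches all 191 bases of U2, though not unbroken: its longest exact run is bases 6 to 191. Its neighbour ENSG00000274452 (chr17:43290291-43290481, minus strand), with 1 difference, was so in 34. RNU2-48P (chr5:157976766-157976956, minus strand) was so in 32, and RNU2-61P, RNU2-37P, RNU2-7P and RNU2-33P in 31 each. These 5 lie on 5 chromosomes, and each holds the letters of hsa-miR-1246 with an exact run starting at or before U2 base 91.

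RNU2-61P (chr6:89063500-89063690, minus strand, outside annotated genes) stood near 1 in the UC groups. Its ratio was 0.929, 0.936 and 0.946 in 2D sEV, 0.998, 0.998 and 0.995 in 2D exomere and 0.999, 0.999 and 1.000 in 2D supermere. The 3 sEV libraries were below all 6 particle libraries of this culture. In the 3D groups it was 0.985, 0.960 and 0.962 for sEV, 0.999, 0.999 and 0.996 for exomere and 0.999 and 0.931 for supermere, so that sEV and supermere overlapped. It fell away from 1 in FPLC exomere A at 0.297 (the others 0.934, 0.853 and 0.924) and in pool 6_7 at 0.610, 0.951, 0.811 and 0.623.

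Among most high entries whose run reaches past the right end of the letters, ratios declined as the run began further into them. RNU2-6P, with a run from base 68 to 114, did not follow this. Its median ratio of 0.503 lay below 0.748 for RNU2-26P, 0.662 for RNU2-29P and 0.625 for RNU2-68P. RNU2-26P begins at base 95, RNU2-29P at 96, RNU2-68P at 97, RNU2-59P at 98 and RNU2-64P at 100. RNU2-61P was above RNU2-26P in 33 of 37 libraries, RNU2-26P above RNU2-29P in 33, RNU2-29P above RNU2-68P in 34, RNU2-68P above RNU2-59P in 31 and RNU2-59P above RNU2-64P in 37. The whole order held in 25 of 37 libraries. Pairs with the same start also stood together: RNU2-4P (chr17:43387226-43387417, minus strand, in an exon of LINC00910) was within 10% of RNU2-59P in 32 libraries, and RNU2-5P within 10% of RNU2-64P in 21. FPLC exomere A was an exception, with RNU2-4P at 0.626 and RNU2-59P at 0.0403. The entries share reads and were ordered by their own sequences, so this order is a description with no test.

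**Figure D2:**
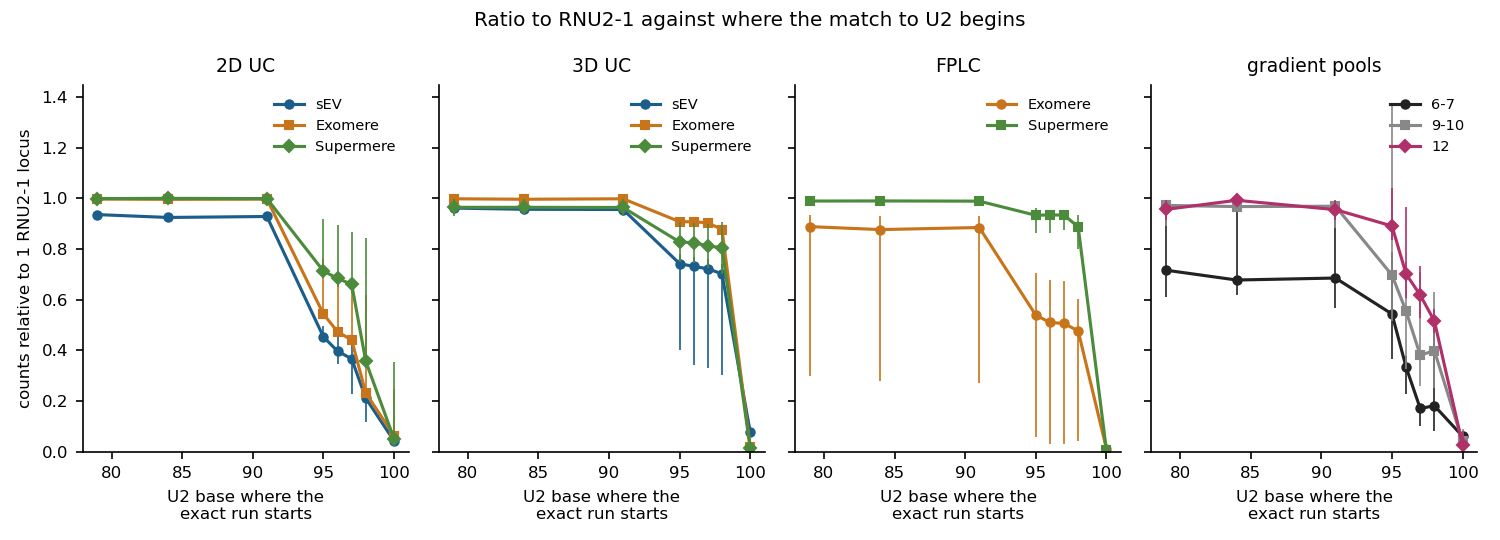
Counts relative to 1 RNU2-1 locus (y axis) against the U2 base at which the exact run begins (x axis) for RNU2-61P, RNU2-48P, RNU2-37P, RNU2-26P, RNU2-29P, RNU2-68P, RNU2-59P and RNU2-64P; points are group medians and bars the range over libraries. Among the entries drawn, the lowest group median for starts up to base 91 is 0.678 (RNU2-48P in pool 6_7), and at base 100 the highest is 0.0766 (RNU2-64P in 3D sEV). RNU2-6P, whose run starts at base 68, is not drawn.

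How steep the decline was depended on the library. For RNU2-59P (chr10:101364845-101365035, minus strand, in an intron of BTRC on the opposite strand) the ratio was 0.238, 0.211 and 0.118 in 2D sEV, 0.230, 0.231 and 0.618 in 2D exomere and 0.357, 0.343 and 0.843 in 2D supermere. In the 3D groups it was 0.301, 0.702 and 0.740 for sEV, 0.877, 0.847 and 0.877 for exomere and 0.906 and 0.703 for supermere. Library C stood above A and B in 2D exomere and 2D supermere, and sEV A stood below the others of 3D sEV. By fraction, the 3D libraries were higher than the 2D libraries without overlap for sEV and exomere, and overlapped them for supermere.

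RNU2-26P (chrX:91798093-91798283, plus strand, in an intron of PCDH11X) had higher ratios in 2D sEV than RNU2-59P. It was 0.495, 0.446 and 0.453 in 2D sEV, 0.524, 0.543 and 0.759 in 2D exomere and 0.713, 0.685 and 0.921 in 2D supermere. In 3D exomere it was 0.908, 0.892 and 0.917, and in FPLC supermere 0.921, 0.946, 0.863 and 0.964. Both groups lay above every 2D library except supermere C, the highest of that culture. Pool 12 held 1.04, 0.922, 0.835 and 0.861, pool 6_7 0.658, 0.788, 0.429 and 0.365, and pool 9_10 1.37, 0.612, 0.783 and 0.517.

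RNU2-64P (chr3:73110992-73111182, plus strand, outside annotated genes) had the lowest median ratio of the 5 entries in that order. Its ratio was 0.0629, 0.0483 and 0.248 in 2D exomere, 0.0508, 0.0459 and 0.356 in 2D supermere and 0.0169, 0.00967 and 0.0571 in 3D exomere. Library C was the highest in each of these 3 groups. RNU2-6P (chr13:46374401-46374590, minus strand, in an intron of RUBCNL), whose exact run ends early, at base 114, went the other way in 2D. It was 0.503, 0.488 and 0.220 in 2D exomere and 0.476, 0.475 and 0.0891 in 2D supermere, with library C lowest. It was 0.954, 0.969, 0.949 and 0.993 in FPLC supermere, above all 2D libraries.

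**Figure D3:**
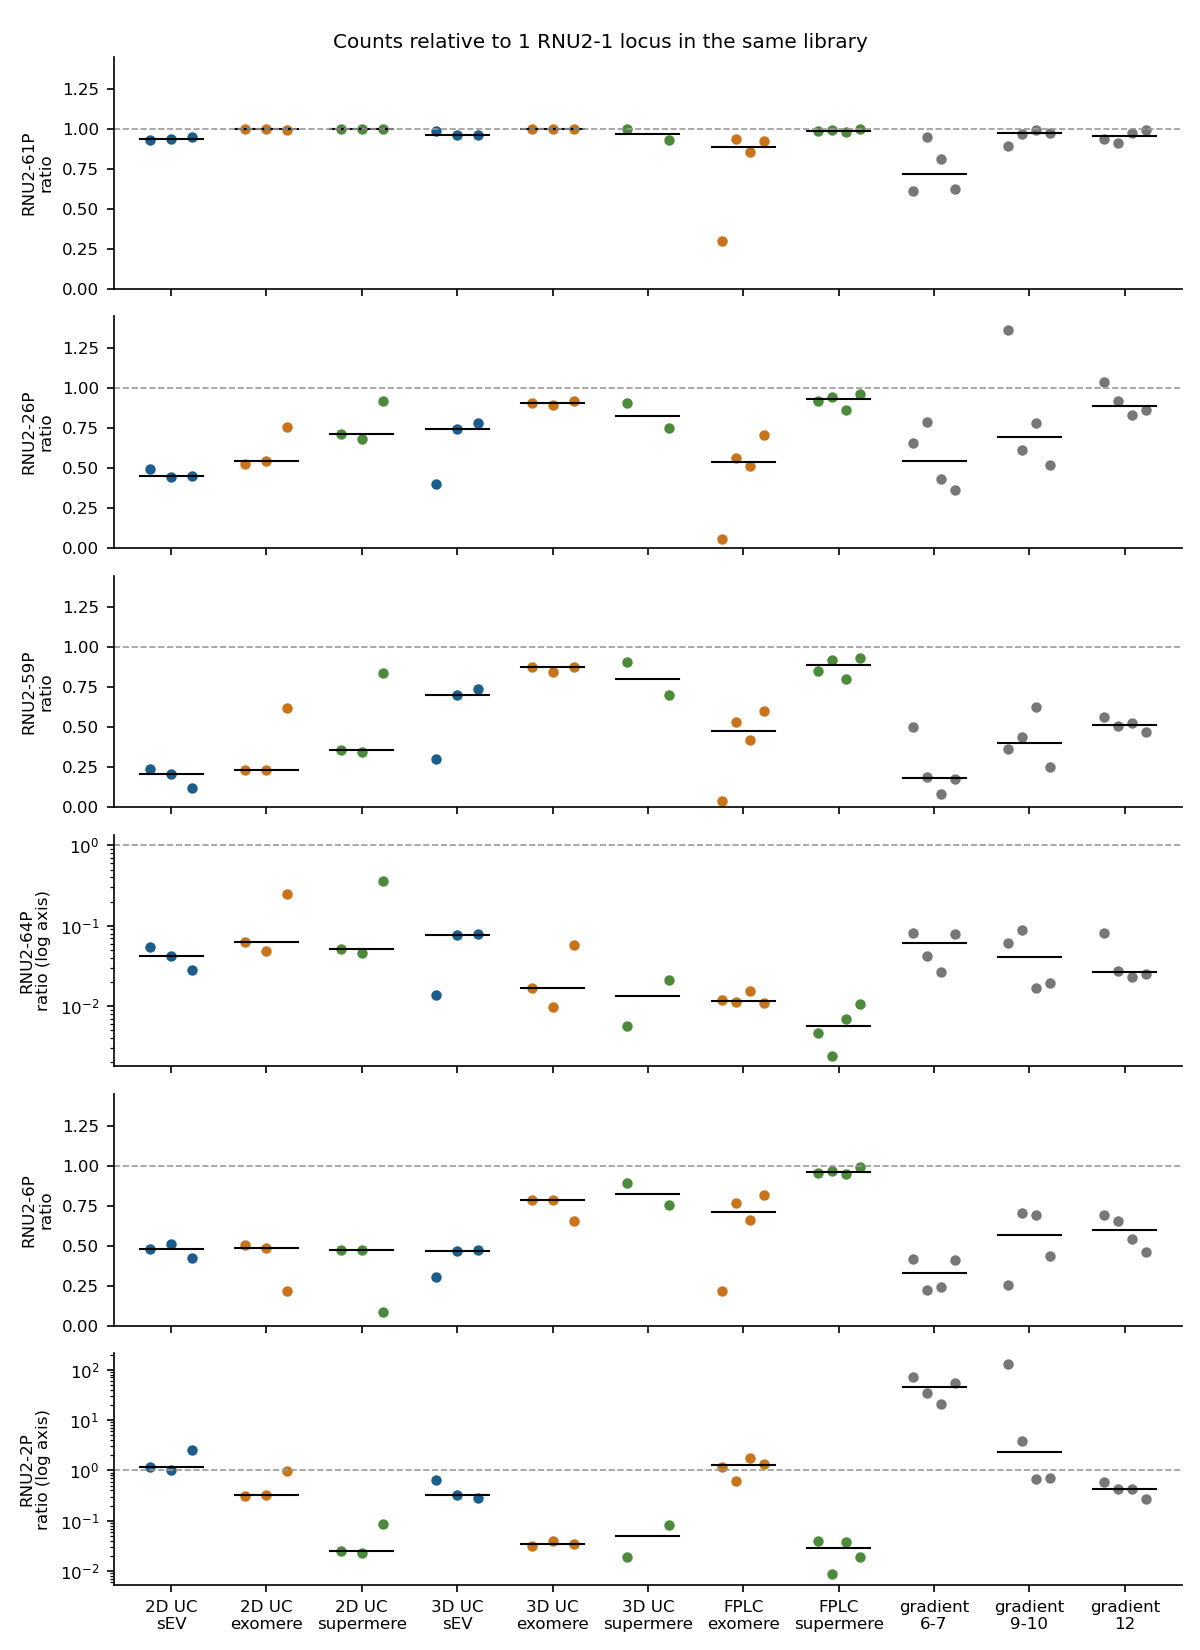
Locus ratio of 6 U2 entries in each library (points) with the group median (line) for the 11 groups on the x axis; RNU2-64P and RNU2-2P have log axes and the dashed line marks 1. RNU2-61P lies near 1, RNU2-26P and RNU2-59P spread below it, and RNU2-2P runs from 0.00856 to 130.3.

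The ratio of each entry to RNU2-1 was compared between groups with two-sided exact permutation tests over libraries, on log2 of the counts plus 0.5. In the planned family of 36 tests (the 6 entries with the highest mean CPM in 6 designs), 5 of 6 entries differed between the 2D fractions, each at the smallest p the exact test allows (p = 0.00357, adjusted p = 0.0214). The span between fraction means was small, from 0.07 for ENSG00000274452 to 0.11 for RNU2-7P. These 5 entries share reads, so they are not 5 separate results, and their adjusted p rests on their being counted together. The permutations ran freely over all 2D libraries. Supermere and exomere libraries of the same letter moved together there (correlation of deviations 0.142 to 0.472), which the test ignores. RNU2-48P differed between the gradient pools (span 0.45, exact permutation p = 0.00121, adjusted p = 0.0214). In the 3D fractions, between cultures, between FPLC fractions and between FPLC and 3D UC 0 of 6 passed. For the FPLC fractions the smallest possible p is 0.0286, so none could pass after adjustment here. When pool 6_7 A or B was left out 2 and 5 of 6 passed in the gradient, and leaving out any 1 of the 2D supermere libraries left 2 of 6 in the 2D fractions. Leaving out 3D supermere B changed the outcome in the 3D fractions, but it left 1 library in that group, whose spread cannot be seen. Between cultures 1 of 6 passed without 2D exomere A, 2D exomere C or 3D exomere B.

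Widening the family to all 20 entries with at least 10000 counts, a choice made after seeing the data, gave 120 tests. RNU2-33P and RNU2-2P joined the entries that differed between the 2D fractions, for 7 of 20, with RNU2-2P at a span of 5.30 (exact permutation test, adjusted p = 0.0390). Between cultures RNU2-4P and RNU2-59P passed, higher in 3D by 1.28 and 1.26 log2 units (adjusted p = 0.0390 for each). In the gradient RNU2-48P and RNU2-68P passed, the latter with a span of 1.94. In the 3D fractions, the FPLC fractions and FPLC against 3D UC 0 of 20 passed, and RNU2-2P had an adjusted p of 0.0686 in the 3D fractions (span 3.47), between cultures (lower in 3D by 1.85), in FPLC (supermere lower than exomere by 5.65) and in the gradient (span 6.64). For the FPLC fractions the smallest possible exact permutation p, 0.0286, adjusted to 0.0686, so none could pass in this family either. RNU2-2P, RNU2-59P and RNU2-61P were among the entries at that smallest p. Here too the adjusted p rests on entries that share reads.

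RNU2-2P and RNU2-36P had the widest range of locus ratios. For RNU2-2P the ratio was 1.19, 1.03 and 2.51 in 2D sEV, 0.303, 0.331 and 0.989 in 2D exomere, and 0.0247, 0.0234 and 0.0873 in 2D supermere. The 3 fractions did not overlap, and their order was sEV, exomere, supermere. In the 3D groups it was 0.632, 0.319 and 0.282 for sEV, 0.0314, 0.0391 and 0.0341 for exomere and 0.0186 and 0.0825 for supermere, where exomere and supermere overlapped and both lay below sEV. FPLC exomere held 1.18, 0.623, 1.78 and 1.34 and FPLC supermere 0.0405, 0.00856, 0.0383 and 0.0188, again without overlap.

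In pool 6_7 of the gradient RNU2-2P exceeded the RNU2-1 loci. That pool held 72.1, 34.4, 20.5 and 54.9 times the counts of 1 RNU2-1 locus, so that this entry alone was above the whole RNU2-1 feature in each of the 4 libraries. Pool 9_10 held 130.3, 3.84, 0.659 and 0.694, and pool 12 held 0.596, 0.425, 0.421 and 0.265. Pools 6_7 and 12 did not overlap, and every pool 9_10 library lay above pool 12, 1 of them above pool 6_7 and 3 below it.

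On the CPM scale, which rests on library totals and not on RNU2-1, RNU2-2P was 219.9, 284 and 934 in 2D sEV, 1213, 939.7 and 6019 in 2D exomere and 148, 137 and 1344 in 2D supermere. RNU2-1 was 2029, 3022 and 4093 CPM in 2D sEV, 43992, 31275 and 66965 in 2D exomere and 66206, 64513 and 169360.2 in 2D supermere. RNU2-1 was thus lowest in sEV without overlap, while the RNU2-2P libraries of sEV and supermere overlapped. Pool 9_10 A held 29488.5 CPM of RNU2-2P against 1716, 388.5 and 249 in the other libraries of that pool, and pool 6_7 held 2085, 3448, 1090.0 and 1677.

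In exomere and supermere RNU2-2P was lower in 3D than in 2D without overlap, and the sEV libraries of the cultures overlapped. In 3D it was 905, 600.2 and 462 CPM in sEV, 86.5, 62.0 and 120.1 in exomere and 22.1 and 10.7 in supermere, without overlap. FPLC exomere held 511, 425, 740.1 and 977 CPM and FPLC supermere 1.14, 3.18, 6.05 and 20.1. Pool 12 held 326, 294, 357 and 386 CPM, below every library of pool 6_7.

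**Figure D4:**
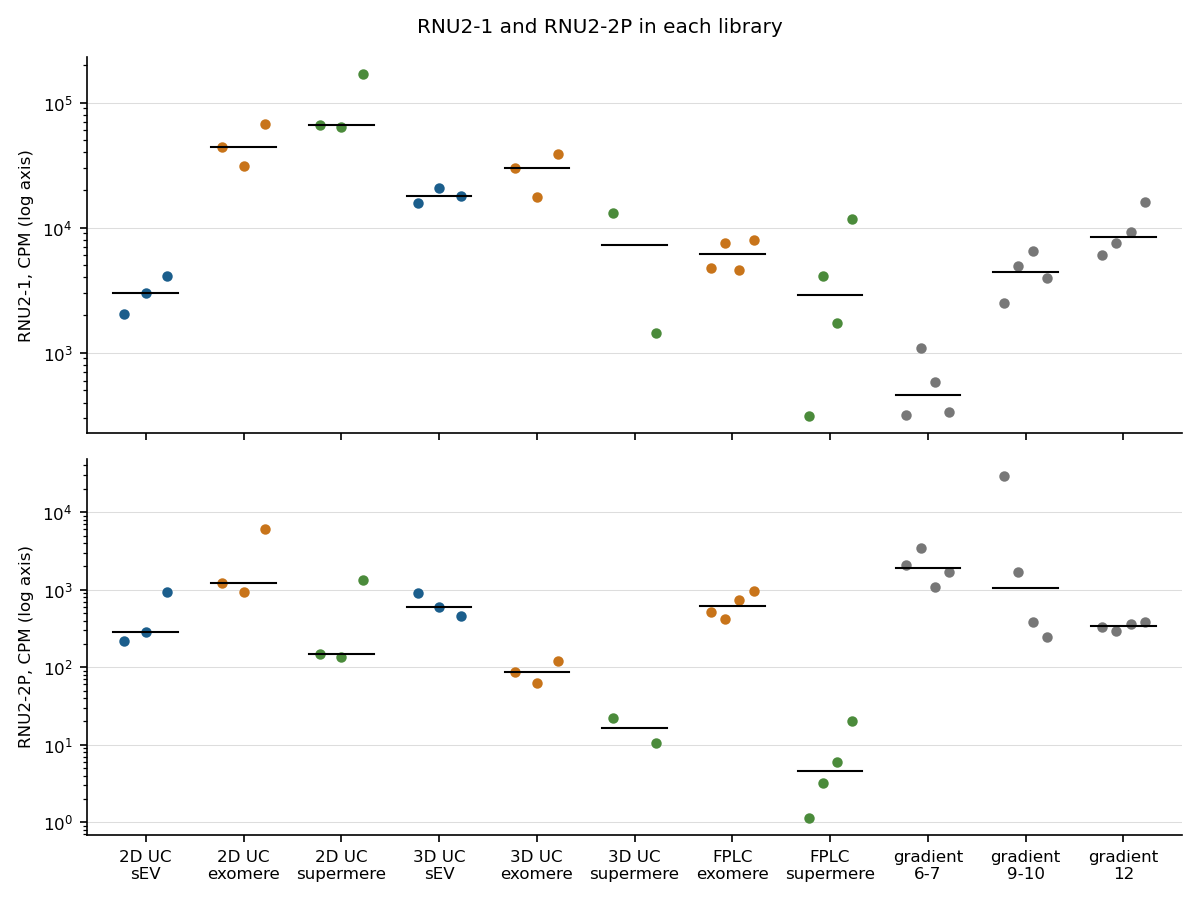
CPM (log axis) of RNU2-1 and RNU2-2P in each library (points) with the group median (line) for the 11 groups on the x axis; 3D supermere A is left out. The group median of RNU2-1 is lowest in pool 6_7, with libraries at 318 to 1101 CPM, where RNU2-2P lies between 1090.0 and 3448 CPM.

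RNU2-36P stood with RNU2-2P. It lies on another chromosome (chr9:86422938-86423128, minus strand, outside annotated genes) and has 88.0% identity with U2, but the same 50 letters at U2 bases 79 to 128 as RNU2-2P. Its counts were within 10% of those of RNU2-2P in 23 of 37 libraries and never above them. It held 99.1% to 99.3% of the RNU2-2P counts in 2D exomere and 98.7% to 99.7% in pool 6_7, but 37.9% to 86.9% in FPLC supermere and 52.5% in FPLC exomere A. Over 37 libraries, which differ in depth and share reads between these entries, the Pearson correlation of log2 CPM was 0.997 between RNU2-36P and RNU2-2P and 0.107 between RNU2-2P and RNU2-1. With RNU2-1 it was 0.992 for RNU2-61P, 0.929 for RNU2-59P and 0.873 for RNU2-64P. By this measure RNU2-36P was the entry most like RNU2-2P. The pair made up 67.3% to 86.4% of the counts of RNU2-1 and all U2 entries together in pool 6_7, 5.33% to 91.0% in pool 9_10 and 8.45% to 19.3% in 2D sEV.

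Differences between groups were then tested for every feature of the table with edgeR's quasi-likelihood test, with p-values adjusted over the 7009 features that passed a filter on low counts. A feature is called where its adjusted p is below 0.05, with no limit on fold. Of the 75 U2 entries 44 passed the filter: all 20 with at least 10000 counts and 24 others. Log2 fold changes rest on TMM scaling, which differs from library totals, so a fold change can differ from the ratio of CPM. Every comparison below that shares a control group with another uses the same control libraries.

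Most high U2 entries were higher in the 2D particles than in 2D sEV. In 2D exomere against sEV 21 of the 44 rose and 0 fell, against 8.57% of all 7009 features called in either direction. The median log2 fold change of the 44 was 2.74 and that of all features 0.10. Of the 20 high entries 17 rose, RNU2-2P, RNU2-36P and RNU2-6P being the others, and of the 24 lower entries 4 rose. RNU2-64P rose by 4.90 (SE 1.02, adjusted p = 4.81e-05), RNU2-59P by 4.13 (SE 0.92, adjusted p = 0.000215) and RNU2-61P by 2.76 (SE 0.86, adjusted p = 0.0181), beside 2.68 for RNU2-1 (SE 0.80, adjusted p = 0.0120). RNU2-2P had 1.60 (SE 0.85, adjusted p = 0.414). Without exomere C the count was 0, and without sEV A, B or C it was 7, 12 and 10.

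In 2D supermere against sEV 27 of the 44 rose and 0 fell, against 10.4% of all features. The median was 5.20 for the entries and -0.01 for all features. All high entries except RNU2-2P and RNU2-36P were among the 27. With snRNA counts as library size 0 rose and 2 fell. RNU2-1 and the U2 entries made up a median of 69.4% of the snRNA counts in 2D supermere and 50.7% in 2D sEV. That scaling therefore takes out much of any change they share. RNU2-64P rose by 8.21 (SE 1.19, adjusted p = 4.22e-10), RNU2-59P by 7.34 (SE 1.07, adjusted p = 8.14e-10), RNU2-26P by 6.19 (SE 1.01, adjusted p = 5.98e-08) and RNU2-6P by 3.46 (SE 0.91, adjusted p = 0.00221). RNU2-1 rose by 5.23 (SE 0.90, adjusted p = 2.55e-07). The fold changes of RNU2-64P and RNU2-59P were above that of RNU2-1 and that of RNU2-6P below it, a difference that was not tested. By locus ratio supermere A and B held 0.0508 and 0.0459 for RNU2-64P and 0.476 and 0.475 for RNU2-6P. Those values are near sEV, at 0.0285 to 0.0548 and 0.424 to 0.510. Only supermere C departed, at 0.356 and 0.0891, while for RNU2-59P every supermere ratio lay above sEV. The epithelial microRNAs, of which 7 of 8 fell in both of these comparisons, moved the other way; their part in the result was not tested.

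Between 2D supermere and exomere 0 of the 44 were called by edgeR, against 0.0856% of all features. The median of the entries was 2.41 and 25 of the 44 had an unadjusted p below 0.05. DESeq2 called 12, all higher in supermere. Without exomere C edgeR called 10, and without supermere C it called 2.

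Few entries were called between the 3D fractions. In 3D exomere against sEV 0 rose and 3 fell, against 10.1% of all features: RNU2-2P fell by 2.87 (SE 0.89, adjusted p = 0.0172), RNU2-36P fell by 2.78 (SE 0.89, adjusted p = 0.0245) and RNU2-23P fell by 3.74 (SE 1.15, adjusted p = 0.0160). RNU2-1 had 0.70 (SE 0.75, adjusted p = 0.636). The count was 0 to 1 when any of the 3 exomere libraries or sEV A was left out. It was 0 with library totals, with snRNA counts as library size or with no filter on low counts, and 1 with DESeq2. It turned to 14 entries higher in exomere under DESeq2's size factors in edgeR without 3D supermere A, and to 17 higher and 1 lower when only these groups were fitted.

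In 3D supermere against sEV 0 rose and 4 fell, against 7.78% of all features. RNU2-2P fell by 5.05 (SE 1.15, adjusted p = 0.000574), RNU2-36P fell by 5.19 (SE 1.18, adjusted p = 0.000559), RNU2-64P fell by 4.05 (SE 1.18, adjusted p = 0.0118) and RNU2-5P fell by 3.81 (SE 1.16, adjusted p = 0.0184). The median was -1.27 for the entries and -3.90 for all features. Without supermere B or C the count was 1, and with DESeq2's size factors in edgeR, without 3D supermere A, 1 entry was higher and none lower. Between 3D supermere and exomere 0 were called by edgeR and 0 by DESeq2, against 0.371% of all features, with 22 at an unadjusted p below 0.05.

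Between cultures, entries were called higher in 3D for sEV and lower in 3D for supermere, and the exomere calls went both ways. All 3 counts depended on single libraries and on scaling. In 3D against 2D sEV 23 of the 44 rose and 0 fell, against 2.95% of all features. The median was 3.55 for the entries and -0.77 for all features, and 17 of the 20 high entries rose. RNU2-1 held 15759.7, 20725 and 18013 CPM in 3D sEV, above all 3 libraries of 2D sEV, and rose by 3.56 (SE 0.83, adjusted p = 0.00172). RNU2-59P rose by 5.25 (SE 0.98, adjusted p = 2.41e-05), while RNU2-2P had 1.56 (SE 0.85, adjusted p = 0.429). Without 2D sEV A, B or C the count was 5, 8 and 8.

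In 3D against 2D supermere 18 fell and 0 rose, against 3.2% of all features, and 17 of the 18 were high entries. RNU2-1, at 13040.1 and 1427 CPM in 3D supermere, fell by 3.44 (SE 0.83, adjusted p = 0.00222), RNU2-2P fell by 4.35 (SE 1.12, adjusted p = 0.00570) and RNU2-64P fell by 8.19 (SE 1.41, adjusted p = 2.67e-06). The median was -3.11 for the entries and -4.69 for all features. The count was 0 without 2D supermere C, 4 without the near-empty 3D supermere A and 2 without 3D supermere C. RNU2-2P had -0.29 without 2D supermere C, and it was not called without that library or 3D supermere B or C. In 3D against 2D exomere 2 rose and 2 fell, against 8.59% of all features. RNU2-6P rose by 2.85 (SE 0.89, adjusted p = 0.0250) and RNU2-51P by 3.07 (SE 1.04, adjusted p = 0.0425), and RNU2-2P fell by 2.91 (SE 0.89, adjusted p = 0.0219) and RNU2-36P fell by 2.98 (SE 0.90, adjusted p = 0.0209). With library totals 0 rose and 6 fell, and under each of the other scalings 0 rose and 2 fell. The count was 0 without 3D exomere B or C, 1 without 2D or 3D exomere A, 2 without 2D exomere B and 11 without 2D exomere C. RNU2-2P had -0.64 without 2D exomere C, and it was not called without that library or any 1 of the 3D exomere libraries.

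The difference between cultures in the step from sEV to particle was tested as an interaction. For exomere against sEV 5 of the 44 had a lower step in 3D and 0 a higher one, against 1.81% of all features: RNU2-2P (-4.46, SE 1.22, adjusted p = 0.0230), RNU2-36P, RNU2-64P (-5.16, adjusted p = 0.0122), RNU2-5P and RNU2-23P. This count was 0 without 2D exomere C, 2D sEV A, 2D sEV B, 3D exomere B or 3D sEV B, 2 without 3D exomere A or 3D sEV A and 3 without 3D sEV C. For supermere against sEV 25 had a lower step in 3D and 0 a higher one, against 1.66% of all features, with 19 of the 20 high entries among them. The step of RNU2-64P was lower by 12.27 log2 units (SE 1.72, adjusted p = 4.94e-09) and that of RNU2-59P by 8.23 (SE 1.34, adjusted p = 1.26e-06). The count was 15 without 2D supermere C and 16 without 3D supermere C.

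Between the FPLC fractions RNU2-2P and RNU2-36P fell, while 12 of the other high entries rose under TMM scaling. In FPLC supermere against exomere 13 of the 44 rose and 3 fell, against 9.03% of all features. RNU2-59P rose by 2.85 (SE 0.76, adjusted p = 0.00467), RNU2-26P by 2.70 (SE 0.75, adjusted p = 0.00744), RNU2-6P by 2.33 (SE 0.75, adjusted p = 0.0279) and RNU2-61P by 2.07 (SE 0.73, adjusted p = 0.0493). RNU2-2P fell by 4.26 (SE 0.82, adjusted p = 2.4e-05), RNU2-36P fell by 4.78 (SE 0.86, adjusted p = 5.01e-06) and RNU2-23P fell by 3.33 (SE 0.99, adjusted p = 0.0145). The rises depended on the scaling: with library totals 0 rose and 7 fell, with snRNA counts as library size 0 rose and 4 fell, and RNU2-61P had -0.15 with library totals. RNU2-1 was 4782, 7506, 4586 and 8021 CPM in FPLC exomere and 311, 4081, 1738 and 11759 in FPLC supermere, which overlapped. Leaving out FPLC exomere A, B or C or supermere B or D gave 7 to 10 calls.

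FPLC exomere held less of the high entries than the exomere pellet of the same culture. In FPLC against 3D UC exomere 1 of the 44 rose and 20 fell, against 9.4% of all features, and 17 of the 20 high entries were among those that fell. RNU2-59P fell by 4.53 (SE 0.84, adjusted p = 2.13e-05) and RNU2-1 fell by 3.43 (SE 0.74, adjusted p = 0.000398). RNU2-2P had 1.74 (SE 0.82, adjusted p = 0.127). RNU2-23P rose by 4.71 (SE 1.17, adjusted p = 0.00418). With snRNA counts as library size 3 rose and 6 fell. For FPLC against 3D UC supermere 0 were called by edgeR and 0 by DESeq2, against 0.228% of all features, with 1 at an unadjusted p below 0.05.

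In the gradient, most tested entries were higher in pool 12 than in the other pools under TMM scaling. In pool 12 against 6_7 36 of the 44 rose and 2 fell, against 9.93% of all features. Of the 36, 18 were high entries and 18 were among the 24 lower ones. A lower entry can pass the count filter through pool 12 alone, so a rise of such an entry there may follow from the filter. RNU2-1, at 6025, 7618, 9317 and 15979 CPM in pool 12 and 318, 1101, 584 and 336 in pool 6_7, rose by 4.32 (SE 0.75, adjusted p = 3.18e-07) with no overlap. RNU2-59P rose by 5.69 (SE 0.87, adjusted p = 6.77e-09) and RNU2-6P by 5.35 (SE 0.87, adjusted p = 4.41e-08). RNU2-2P fell by 2.32 (SE 0.75, adjusted p = 0.0232) and RNU2-36P fell by 2.48 (SE 0.76, adjusted p = 0.0152). The fall of RNU2-2P rested on the processing. It was not called with library totals (-2.61), with no filter on low counts (-1.22), with only these groups fitted (-0.28), with DESeq2 (-1.72) or without pool 12 A, B or C or pool 6_7 B. With DESeq2's size factors in edgeR, without 3D supermere A, RNU2-2P had 0.13. With snRNA counts as library size 1 of the entries rose and 2 fell. All 8 epithelial microRNAs fell in this comparison; their part in the result was not tested.

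In pool 12 against 9_10 38 of the 44 rose and 0 fell, against 6.18% of all features. Among them were 18 of the 20 high entries and 20 of the 24 lower ones, to which the same limit of the filter applies. RNU2-1 rose by 4.41 (SE 0.75, adjusted p = 6.27e-07) and RNU2-56P by 5.96 (SE 0.95, adjusted p = 1.4e-07). With library totals 3 rose and 2 fell, and with snRNA counts as library size 0 rose and 2 fell. Between pools 9_10 and 6_7 0 were called by edgeR, against 14% of all features, with 3 at an unadjusted p below 0.05. This rested on the scaling: the median of the entries was -0.47 with TMM, 2.65 with library totals and 2.10 with DESeq2's size factors without 3D supermere A, and the latter scalings called 21 entries each, all higher in pool 9_10. With TMM 1 to 3 were called when pool 6_7 B or pool 9_10 A, B or D was left out. On the CPM scale RNU2-1 was 2489, 4912, 6480.1 and 3950.3 in pool 9_10, above all 4 libraries of pool 6_7.

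**Figure D5:**
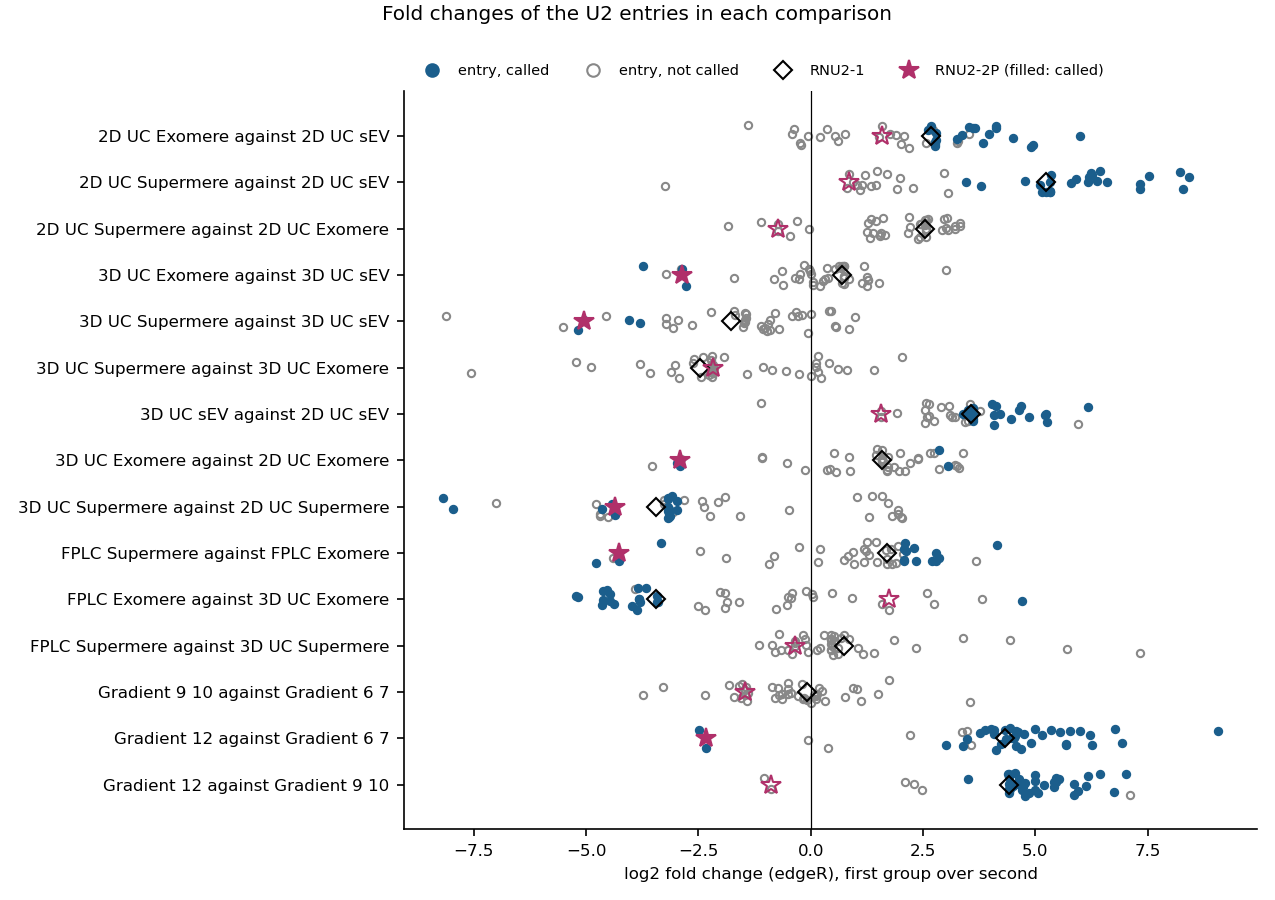
Log2 fold change from edgeR (x axis) of each of the 44 tested U2 entries in each of 15 comparisons (y axis), filled where called, with RNU2-1 as a diamond and RNU2-2P as a star. RNU2-2P lies left of RNU2-1 except in 3D supermere against 3D exomere (-2.18 against -2.47) and in FPLC against 3D UC exomere (1.74 against -3.43).

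Some entries below 10000 counts in all were high in single groups. RNU2-23P (chr11:65147584-65147778, plus strand, outside annotated genes) matches RNU2-1 best at bases 22 to 66, near the 5′ end. It held 16.9, 32.5 and 17.1 CPM in 3D sEV against 0.296 to 4.24 in 3D exomere. It held 37.1 to 214 CPM in FPLC exomere and 0.316 to 2.33 in FPLC supermere, without overlap. In 3D against 2D sEV it rose by 5.21 (SE 1.22, adjusted p = 0.00189).

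RNU2-38P, RNU2-30P, RNU2-46P, RNU2-28P and RNU2-16P have their longest exact run within the first 60 bases of U2. They were highest in pool 12, where RNU2-38P held a median of 36.7 CPM (6.90 to 116) and RNU2-16P one of 18.2 (3.48 to 58.1). Outside the gradient RNU2-16P stayed at or below 2.50 CPM in every library. RNU2-51P was also highest in pool 12, with a median of 150.3 CPM (18.1 to 399), against at most 6.80 in pool 6_7. It rose in pool 12 against 6_7 by 6.77 (SE 1.09, adjusted p = 4.07e-08). Entries highest in pool 12 can pass the count filter through that pool, so this rise is no separate support.

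RNU2-56P (chr20:18265690-18265879, minus strand, outside annotated genes) and RNU2-70P (chr1:236267780-236267958, plus strand, in an intron of ERO1B on the opposite strand) do not hold the letters unbroken. RNU2-56P had a locus ratio of 1.43, 0.421, 0.377 and 0.269 in pool 12 but 0.0152, 0.0148 and 0.0395 in 2D exomere. RNU2-70P had 1.01, 0.114, 0.0867 and 0.0718 in pool 12 and 0.00595, 0.00328 and 0.102 in 2D exomere. In both groups 1 library stood above the rest, A in pool 12 and C in 2D exomere.

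Summed, the 75 entries held about as many counts as RNU2-1 in most groups. The median of their sum as a percent of RNU2-1 was 108.6% in 2D sEV, 97.9% in 2D exomere, 101.7% in 2D supermere, 114% in 3D sEV, 121% in 3D exomere and 117.7% in 3D supermere. It was 117.5% in FPLC exomere, 124% in FPLC supermere, 127% in pool 12, 148% in pool 9_10 and 898% in pool 6_7. Without RNU2-2P and RNU2-36P, left out after seeing the data, pool 6_7 had 89.7% and 2D sEV 86.1%. Pool 9_10 ran from 101.5% to 2503%, its highest value in library A, where the RNU2-2P pair held 91.0% of the U2 counts.

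The feature hsa-miR-1246 itself did not keep a fixed proportion to RNU2-1. It was 37465 to 37908 CPM in 2D supermere beside 64513 to 169360.2 CPM of RNU2-1, and 265260.2 to 481112 CPM in pool 12 beside 6025 to 15979. In 2D exomere it was 39683 to 50692 CPM and in 2D sEV 1858 to 5775.

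Other snRNAs were counted in the same fits. Of the 29 tested parent genes of the major spliceosome 0 rose and 3 fell in 2D exomere against sEV, and 6 rose and 6 fell in 2D supermere against sEV. Of the 45 tested U1 copies 1 and 21 rose in these comparisons, and of the 92 tested U6 copies 0 rose in either and 28 fell in the second, where 8.57% and 10.4% of all features were called. Of the 13 tested U7 copies 9 rose and 0 fell in each, with medians of 3.00 and 5.43, beside 2.74 and 5.20 for the U2 entries. Of the 27 tested U4 copies 0 and 1 rose and 8 and 2 fell. Of the 6 tested U5 copies 0 and 1 rose, as did 0 and 1 of the 4 tested parents of the minor spliceosome. In pool 12 against 6_7 3 of the 29 parent genes, 5 of the 45 U1 copies and 8 of the 92 U6 copies rose, against 9.93% of all features called. In pool 12 against 9_10 20 of the parent genes, 27 of the U1 copies and 30 of the U6 copies rose, beside 38 of the 44 U2 entries and 6.18% of all features called. These rises are under TMM scaling. By median summed CPM pool 12 was lower than 9_10 for the parent genes (2525 against 6397), U1 copies (1316 against 2333) and U6 copies (444 against 935). It was lower for U4 and U7 copies too, and higher for the U2 entries (10689 against 8245), U5 copies and parents of the minor spliceosome. The copies of each snRNA share reads with their parents, and no difference between these lists was tested.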

How the data were processed

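Small RNA libraries of 38 samples in 11 groups were deposited as 1 table. The authors deposited expected counts per feature, not scaled between libraries; 6.71% of all values were not whole (tolerance 1e-06), and they were rounded before the count tests. The submitters' processing notes name cutadapt 4.5, FastQC 0.12.1, Bowtie 1.3.1 and GRCh38.p13 without roles. How reads that match several places were divided is not given in the sources used here. Division among identical loci sets the ratio of entries that share reads.

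Members were taken by symbol, and all 75 had an annotated sequence. Members and feature lists were chosen with earlier results of these data known. Named entries are those that pass the count filter, are called or have the highest mean CPM. Each was aligned to RNU2-1 with Biopython 1.88, and the exact run overlapping bases 94 to 112 was recorded. CPM were computed from library totals. Ratios used the 37 libraries with at least 10 RNU2-1 counts and a pseudocount of 0.5.

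Fold changes were fitted in R 4.3.3 by the robust quasi-likelihood functions of edgeR 4.0.16 (TMM, filterByExpr with a minimum count of 10), with all libraries in 1 fit of 27 residual degrees of freedom. The common biological coefficient of variation was 1.11, and TMM factors ran from 0.0553 to 13.6. Benjamini-Hochberg adjustment ran over 7009 features, two-sided. The script was tested on simulated data. DESeq2 1.42.0 (without the near-empty library), other scalings, no filter, the groups compared alone and each library left out were alternatives. As a pairing, replicate letters were checked by the correlation of deviations from group means; only 2D supermere and exomere had every pair above 0.1 (0.142 to 0.472), and the count there was 0 with and without the block. Precision of single values is limited by counting error and by shared reads; reads are not single molecules, since the labels name no molecular identifiers.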

Additional observations from a re-analysis of the deposited data

Results flagged for a closer look

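In groups of 4 libraries, 55 sets of values were examined for a library far from the other 3 (Dixon's criterion at the 95% level), and 8 had one. Chance gives such a library in about 1 of 20 groups. The locus ratio of RNU2-61P was 0.297 in FPLC exomere A. In pool 12 A the ratio was 0.0806 for RNU2-64P, 1.01 for RNU2-70P and 1.43 for RNU2-56P, above the other 3 libraries each time. In pool 9_10 A it was 130.3 for RNU2-2P, 0.631 for RNU2-70P and 1.05 for RNU2-56P, and the summed entries were 2503% of RNU2-1.

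The step from sEV to particle differed between cultures by an interaction test in edgeR. For exomere it differed in 5 of 44 entries, against 1.81% of all features, with RNU2-2P at -4.46 and RNU2-64P at -5.16 (log2, 3D relative to 2D). This count was 0 without 2D exomere C, 2D sEV A, 2D sEV B, 3D exomere B or 3D sEV B. For supermere it differed in 25 of 44, against 1.66% of all features, with RNU2-2P at -5.90 and RNU2-64P at -12.27. RNU2-2P was not called there with library totals (-5.50) or with snRNA counts as library size (-0.13). It was also not called with DESeq2's size factors in edgeR without 3D supermere A (-3.39), or without 2D supermere C (-1.74).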

How the results depend on the processing

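The number of the 44 U2 entries called depended on scaling, among the other choices given below. Median fold changes of all features moved by up to 3.99 (log2) between scalings, by over 0.1 in 11 to 12 of 15 comparisons. The snRNA counts hold the U2 counts themselves, with group medians from 18.2% (FPLC exomere) to 80.2% (3D exomere). Using them as library size takes out part of any change the U2 entries share, so fewer calls there do not show that such a change is absent. With snRNA counts as library size, the counts became 0 for 2D exomere against sEV, 2 (both lower) for 2D supermere against sEV, 0 for 3D exomere against sEV, 2 for 3D supermere against sEV, 0, 2 and 1 for 3D against 2D sEV, exomere and supermere, 4 (lower) for FPLC supermere against exomere, 9 for FPLC against 3D exomere, 3 (2 of them lower) and 2 (lower) for pool 12 against 6_7 and 9_10, and 0 for both differences between cultures. RNU2-1, RNU2-61P and RNU2-6P in 3D against 2D sEV then had -0.0582, -0.0164 and -0.15. With library totals they were 0 for 3D exomere against sEV, 7 for 3D against 2D sEV, 6 (lower) for 3D against 2D exomere, 7 (lower) for FPLC supermere against exomere, with RNU2-61P at -0.15, 21 for pool 9_10 against 6_7, 5 for pool 12 against 9_10 and 3 for the exomere difference. With DESeq2's size factors in edgeR, without the near-empty 3D supermere A, they were 14 (higher) and 1 (higher) for 3D exomere and supermere against sEV, 8 and 2 for 3D against 2D sEV and exomere, 21 for pool 9_10 against 6_7 and 2 for the exomere difference, and RNU2-2P had 0.13 in pool 12 against 6_7. The cause was not tested.

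Without the filter on low counts the numbers were 0 for 3D exomere against sEV, 11 and 2 for 3D against 2D sEV and exomere, 8 for FPLC supermere against exomere, 2 for pool 9_10 against 6_7 and 3 for the exomere difference. With only the groups compared they were 18 (17 higher) and 2 for 3D exomere and supermere against sEV, 1 and 2 for 3D against 2D exomere and supermere, 14 for pool 9_10 against 6_7 and 25 for pool 12 against 9_10, where fewer samples entered each fit. DESeq2 gave 12 for 2D supermere against exomere, 1 and 2 for 3D exomere and supermere against sEV and 7 for 3D against 2D exomere. For 3D against 2D supermere, leaving out the near-empty library gave 4. The replicate block, whose letters pair only 2D supermere and exomere, also gave 4 there. It gave 5, all higher, for 3D against 2D exomere, where RNU2-2P (-2.44) and RNU2-36P lost their calls, and it moved no other count by more than 1.5 times.

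Leaving out 1 library gave 0 to 24 for 2D exomere against sEV, 20 to 28 for 2D supermere against sEV, 0 to 10 for 2D supermere against exomere, 0 to 3 and 1 to 4 for 3D exomere and supermere against sEV, 5 to 23, 0 to 11 and 0 to 18 for 3D against 2D sEV, exomere and supermere, 7 to 15 for FPLC supermere against exomere, 0 to 3 for pool 9_10 against 6_7, and 0 to 4 and 15 to 24 for the exomere and supermere differences. RNU2-59P in 3D against 2D supermere ran from -4.65 to 0.50, the latter without 2D supermere C. Of the 6 ratio tests, 2 to 5 passed in the 2D fractions, 0 to 1 between cultures and 1 to 5 in the gradient, where the snRNA denominator gave 0. That denominator holds the U2 counts too. In the 3D fractions 0 passed without any 1 of the sEV or exomere libraries, and leaving out a supermere library left 1 in that group. The summed entries were 86.1% of RNU2-1 in 2D sEV and 89.7% in pool 6_7 without RNU2-2P and RNU2-36P, and 112%, 109% and 115% in 3D exomere, 3D supermere and FPLC supermere without the entry of highest mean CPM. Pool 9_10, with 525 to 1221 RNU2-1 counts per library, limits what its ratios can show.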
